A study of Mus musculus with 6 samples.

Results

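The baseline described here is the transcriptome of the adult wild-type mouse vomeronasal organ, held in 3 of the 6 libraries of the series. The libraries were chosen by their labels alone, as those named wild type and given the genotype Cnpy1+/+. They came from mice at postnatal day 60, littermates of Cnpy1-/- animals whose libraries are not analysed here. Libraries 1 and 3 were male and library 2 was female, so sex and the single animal cannot be told apart for library 2. RNA of both organs of an animal was combined in each library after the outer bone had been removed, and polyadenylated RNA was made into strand-specific libraries. The whole organ was lysed, so each value is a sum over neurons, supporting cells, glands, vessels and blood. In such bulk samples fewer cells of a type and less RNA per cell cannot be told apart.

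The vomeronasal organ is the chemosensory organ through which mice detect pheromones and related cues. Its sensory neurons form an apical layer, which uses the G protein subunit Gnai2 with receptors of the V1R family, and a basal layer, which uses Gnao1 with receptors of the V2R family. Both layers signal through the cation channel Trpc2, and mature neurons of both make the olfactory marker protein Omp. Glands of the nasal and vomeronasal mucosa secrete lipocalins, small barrel-shaped proteins that carry odorants and pheromones.

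Levels are given in TPM, the share of a transcript in all transcripts after correction for length and depth, which allows genes to be set beside each other. Library 1 held 68650957 estimated reads, library 2 held 60969508 and library 3 held 71670766. Of 35521 genes quantified, 13976 had at least 1 TPM in each of the 3 libraries and are called detected below. They were 39.3% of the genes quantified, and 13742 of them were protein coding, out of 21786 protein-coding genes quantified. No read was assigned in any library to 13787 genes. A zero allows up to 3 reads by counting error alone, or 0.042 to 0.0493 RPM (reads scaled to depth alone), depending on the library. Across the detected genes the log2 levels of any pair of libraries correlated with a Pearson coefficient of 0.993 to 0.996, a description over genes that are not independent replicates. As a check of the labelled sexes, the Y-linked genes Ddx3y, Eif2s3y, Kdm5d and Uty were at 0 in library 2 and between 4.36 and 29.2 TPM in the males.

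The most abundant transcripts were those of secreted lipocalins rather than of neurons. Obp2a, an odorant-binding lipocalin encoded at chr2:25700043-25703326 on the plus strand (GRCm38), stood at 177311, 143890 and 131407 TPM in libraries 1, 2 and 3. It was thus 17.7, 14.4 and 13.1% of all TPM, with a mean of 150869 ± 23735 TPM (SD, n = 3). The neighbouring gene Obp2b was second at 100921, 84728 and 70118 TPM, and Lcn3, a lipocalin of the same cluster, ranked 3rd at 63524, 55140 and 50721 TPM. Lcn4, another lipocalin of chromosome 2, ranked 5th at 26494, 22592 and 23596 TPM. All 4 lipocalins were highest in library 1, as were 5.58% of the genes detected at 1 TPM or more in every library, and together they made up 36.8, 30.6 and 27.6% of TPM.

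The stretch just before the start of these 4 genes is shown because these genes lead the abundance order and because it shows how alike the promoters of the leading pair are. The windows are 100 bases from the RefSeq promoter table for GRCm38.p6, ending before both the RefSeq and the GENCODE start, and capitals mark the letters TATAAA, the core of a TATA box. They lie at chr2:25699943-25700042 (plus strand), chr2:25736907-25737006 (plus), chr2:25765433-25765532 (plus) and chr2:26671283-26671382 (minus).
Obp2a: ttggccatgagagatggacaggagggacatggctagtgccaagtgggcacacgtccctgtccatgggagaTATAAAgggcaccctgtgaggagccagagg
Obp2b: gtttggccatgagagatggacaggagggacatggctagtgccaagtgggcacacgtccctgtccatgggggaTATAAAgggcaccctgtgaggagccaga
Lcn3: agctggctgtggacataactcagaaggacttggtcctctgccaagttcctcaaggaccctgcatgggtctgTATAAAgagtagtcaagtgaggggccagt
Lcn4: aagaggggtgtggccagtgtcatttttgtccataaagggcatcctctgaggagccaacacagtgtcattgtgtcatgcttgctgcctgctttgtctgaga

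The letters began 28 bases before the RefSeq start of Obp2b, 29 before that of Lcn3 and 61 before that of Obp2a, whose GENCODE start lies 31 bases upstream of the RefSeq one. The Lcn4 window held no TATAAA on the printed strand. Over 217 aligned bases the upstream windows of Obp2a and Obp2b were 98.6% identical, against 36.9% for Obp2a and Lcn3 and 33.2% over 241 bases for Obp2a and Lcn4. Counted on both strands within 50 bases of the RefSeq start, TATAAA was present in 1021 of 27025 mouse promoters, or 3.78%. It was present in 6 of the 10 promoters available among the 20 most abundant genes. Within 250 bases the share was 13.0% of all promoters and 7 of those 10. Matches of letters are a description of these windows and show no binding.

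Genes of some other secreted proteins, among them proteins of mucosal defence, were also among the most abundant. Wfdc18, a small whey acidic protein-type protein, ranked 4th at 31207, 27765 and 28740 TPM. The protease-binding protein A2ml1 reached 7211, 5632 and 5884 TPM, and Dmbt1, a mucin-like protein that binds bacteria, 5546, 4312 and 4159 TPM. Both were highest in library 1. The lectin Reg3g was at 3747, 4008 and 3883 TPM, the iron-binding lactoferrin Ltf at 3596, 3766 and 3330 TPM, and the airway protein Bpifa1 at 3206, 3283 and 3542 TPM. These 3 genes varied by only 3.36 to 6.17% between libraries (coefficient of variation, the SD divided by the mean). Of the 20 listed genes of secreted defence proteins, which do not include Wfdc18 or A2ml1, 11 were detected, against 13742 of 21786 protein-coding genes. Muc5ac, a gel-forming mucin of goblet cells, and Scgb1a1, the secretoglobin of club cells, were at most 1.19 TPM in every library, and Scgb1a1 was at 0 in libraries 2 and 3. The related secretoglobin Scgb1c1 was at 548, 724 and 1048 TPM.

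**Figure D1:**
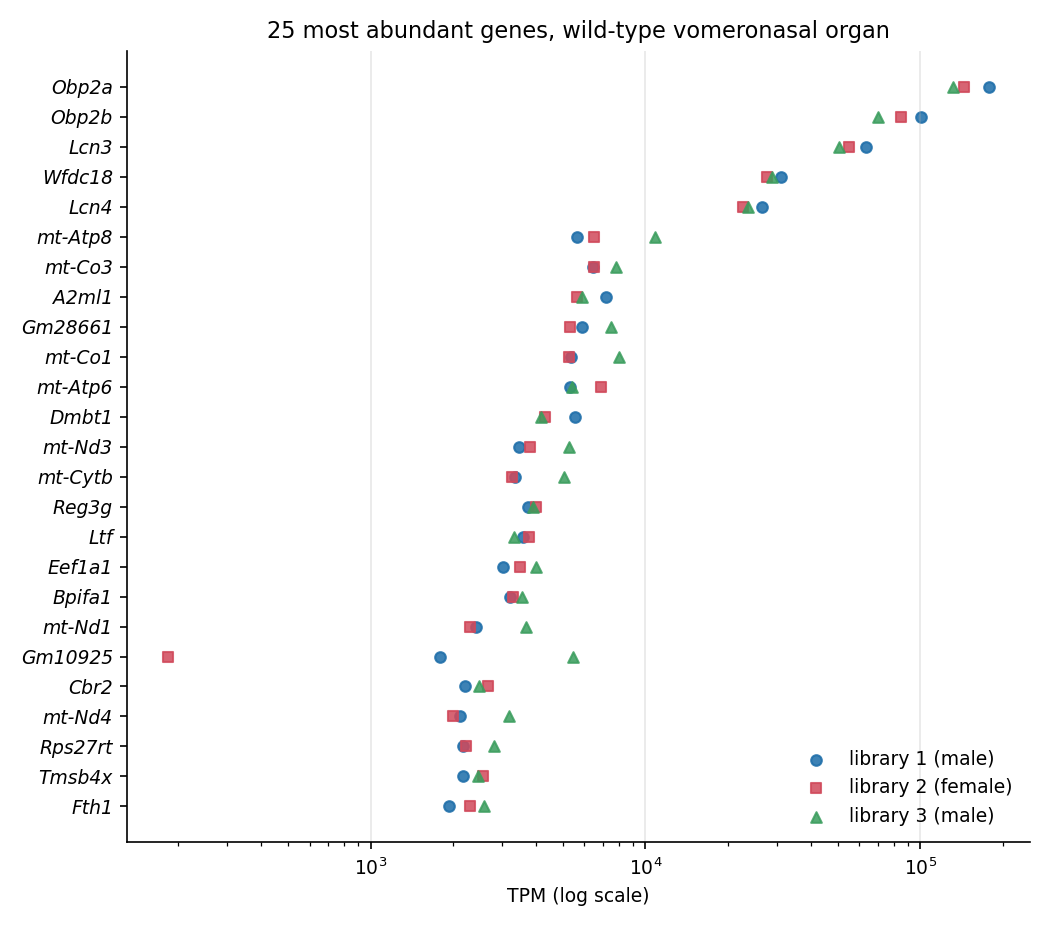
TPM of the 25 genes with the highest mean, on a log scale, 1 point per library. The 3 leading lipocalins lie at 50721 TPM or higher in every library, and Gm10925, whose sequence is shared with a mitochondrial gene, is spread from 184 to 5448 TPM.

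The mitochondrially encoded genes were the other leading group, with 8 of the 25 highest means. All 13 of them together were 3.95, 4.30 and 5.83% of TPM, highest in library 3. mt-Co1, a subunit of cytochrome c oxidase, was at 5354, 5270 and 8007 TPM, and mt-Cytb, of complex III, at 3349, 3274 and 5039 TPM. Gm28661 and Gm10925, also among the 25, are nuclear pseudogenes whose 31-base words all occur in mitochondrial genes. Gm10925 was at 1794, 184 and 5448 TPM while its source mt-Atp6 was at 5314, 6903 and 5412 TPM, and their sum was 7108, 7087 and 10860 TPM. Reads of these pairs cannot be assigned to 1 gene from sequence alone. The 25 were completed by Eef1a1 (translation elongation), Cbr2 (a carbonyl reductase), Rps27rt (a ribosomal protein copy), Tmsb4x (actin binding) and Fth1 (iron storage). The 83 listed genes of cytosolic ribosomal proteins made up 5.55, 6.14 and 6.08% of TPM.

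Abundance was concentrated in few genes. The 10 highest genes of each library held 43.0, 36.5 and 34.5% of its TPM, a mean of 38.0 ± 4.47% (SD, n = 3), and 9 of these genes were common to all 3 libraries. Of the 25 highest, 22 were common. There were 70 genes with a mean of at least 1000 TPM, and they held 49.2% of the total. A further 975 genes between 100 and 1000 TPM held 25.01%, and 7423 genes between 10 and 100 TPM held 22.7%. The 78 highest genes held 50% of all TPM, and 4260 genes held 90%.

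Because TPM sum to a fixed total, a larger lipocalin share lowers the values of all other genes. As deposited, 74.8% of detected genes were lowest in library 1, and the median gene lay 0.11 below its 3-library mean on the log2 scale there, 0.04 above it in library 2 and 0.07 above it in library 3. When TPM were rescaled without Obp2a, Obp2b, Lcn3 and Lcn4, a choice made after seeing the data, 32.2% of detected genes were lowest in library 1, and the 3 medians were 0.00, 0.02 and -0.02. With TMM factors, a scaling that trims extreme genes, the share was 51.3%. For several lists, differences between libraries are therefore also given below with the deviation of the median detected gene removed. Other levels and sums are as deposited.

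All 9 listed markers of mature neurons were detected, as were the 5 apical and the 5 basal markers. Omp, the marker of mature chemosensory neurons, ranked 109th at 699, 879 and 741 TPM, a mean of 773 ± 93.8 TPM (SD, n = 3). The channel Trpc2 was at 153, 157 and 145 TPM. Of its 31-base words 97.5% also occur in the overlapping gene Xntrpc, and the sum of both was 181, 190 and 171 TPM. Obp2a transcripts outnumbered those of Omp by 254, 164 and 177 to 1. Stom, Uchl1 and Gnb1, which are not confined to neurons, were at 511 to 606, 484 to 565 and 852 to 1073 TPM. The synaptic protein Snap25 was at 101, 118 and 131 TPM, and Slc17a6, the vesicular glutamate transporter VGLUT2, at 32.0, 37.9 and 38.0 TPM.

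Apical markers were led by Gnai2, at 423, 435 and 436 TPM. The transcription factor Meis2 was at 106, 108 and 141 TPM, the semaphorin receptor Nrp2 at 42.2, 49.2 and 44.2 TPM, and the phosphodiesterase Pde4a at 19.2, 20.3 and 23.4 TPM. Ncam2, an adhesion molecule, was lowest of the 5 at 6.10, 6.98 and 6.98 TPM. Among basal markers, Gnao1 was at 136, 147 and 160 TPM and the transcription factor Tfap2e at 18.9, 21.8 and 21.2 TPM. The axon guidance receptor Robo2 was at 33.0, 35.6 and 35.9 TPM. Calr4, a calreticulin-like chaperone, was at 278, 328 and 350 TPM. The G protein gamma subunit Gng8 was at 427, 426 and 503 TPM. Of this, 93.7 ± 0.603% was assigned to a short transcript annotated as a retained intron, Gng8-205. Whether these reads came from coding transcripts was not tested.

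Gnai2 stood above Gnao1 in every library, at 3.11, 2.97 and 2.72 to 1, a mean ratio of 2.93 ± 0.200 (SD, n = 3). The ratio is of TPM and not of cells, and Gnai2 is also made in other cell types. It was 2.08 when reads were not divided by transcript length. Most Gnai2 came from 1 coding transcript, Gnai2-201, at 86.7 ± 0.530%. Gnao1 was split between Gnao1-201 at 44.7 ± 1.29% and Gnao1-203 at 37.3 ± 0.172%, with a retained-intron form, Gnao1-202, at 12.8 ± 1.96%.

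**Figure D2:**
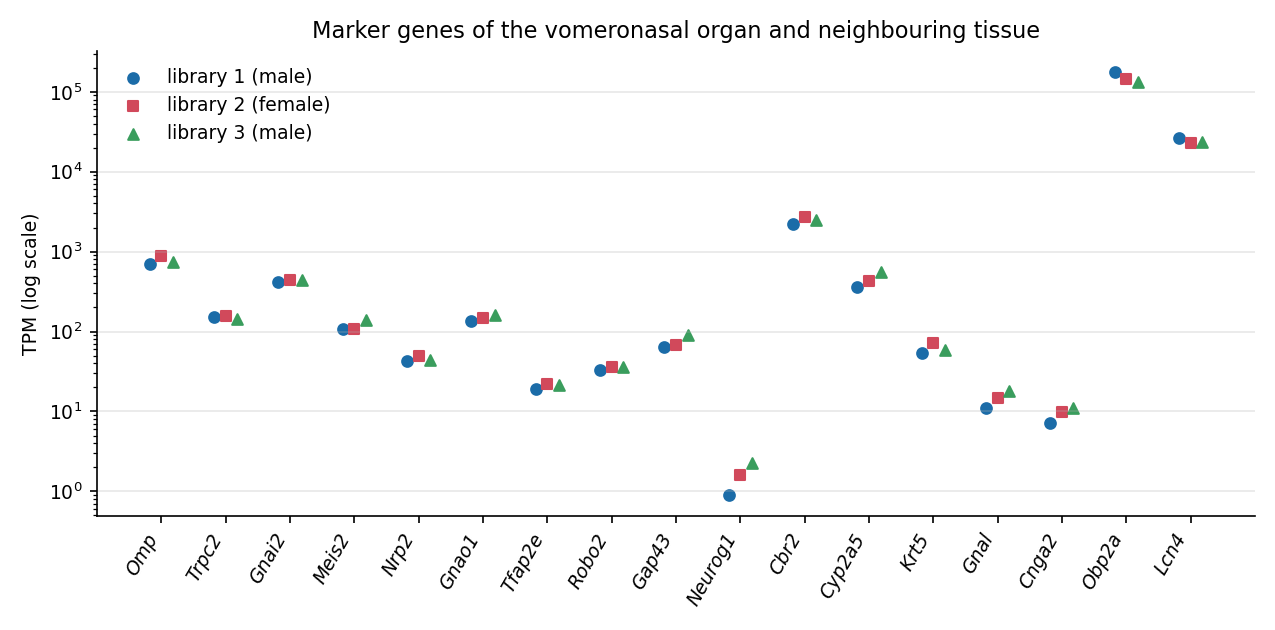
TPM of marker genes on a log scale, 1 point per library, from neuronal markers on the left to supporting and basal cell markers, main olfactory genes and lipocalins on the right. Omp, Gnai2 and Cbr2 lie at 423 TPM or higher in every library, and Neurog1 between 0.911 and 2.28 TPM. The main olfactory genes Gnal and Cnga2 lie at 18.1 TPM or lower, and other members of their list, not drawn, were higher.

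Components of vomeronasal signalling downstream of the receptors covered a wide range of levels, and 13 of 14 were detected. Gnb1, a G protein beta subunit, had the highest mean of the 14, at 852, 992 and 1073 TPM. Gng13, a G protein gamma subunit, was at 181, 215 and 254 TPM. The phospholipase Plcb4 was at 61.2, 58.7 and 59.5 TPM, whereas Plcb2, the isoform often assigned to vomeronasal neurons, was at 4.04, 3.47 and 4.07 TPM. The calcium-activated chloride channels Ano1 and Ano2 stood at 55.3, 48.1 and 49.3 TPM and at 48.3, 50.3 and 54.3 TPM, ranges that overlap. The inositol trisphosphate receptor Itpr3 was at 7.58, 6.99 and 7.08 TPM. The potassium channel Kcnj3 was the member not detected, at 0.203, 0.367 and 0.411 TPM.

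The V1R receptors, expressed mainly in apical neurons, were detected for 124 of 203 annotated genes, against 13742 of 21786 protein-coding genes quantified. The 203 are the genes named Vmn1r or V1r with a number, and 8 of them had no read in any library. One of them, V1rg10, is annotated as a pseudogene and had no read, and Vmn1r216 stands for a pair of annotated genes of the same name. The summed level was 1087, 1222 and 1443 TPM, a mean of 1251 ± 180 TPM (SD, n = 3), from 161752, 150023 and 207461 reads. The median detected V1R was at 5.53 TPM. Of all 203 genes, detected or not, 1 had a mean of at least 100 TPM, 30 between 10 and 100 and 102 between 1 and 10. The 19 highest genes held 50% of the class and the 10 highest held 37.1 ± 0.688%.

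Vmn1r37, at chr6:66729382-66733039 on the plus strand, was the most abundant V1R at 84.0, 111 and 120 TPM. Of its 31-base words 48.3% are unique and 44.9% also occur in Vmn1r36, which was at 10.26, 15.3 and 13.0 TPM. Vmn1r89 on chromosome 7 followed at 66.6, 66.7 and 103 TPM, and Vmn1r85 at 52.0, 54.7 and 67.1 TPM. Vmn1r35 was at 48.5, 51.0 and 56.8 TPM and Vmn1r27 at 28.7, 35.9 and 43.7 TPM. This was the only step among the leading 10 and the eleventh gene at which the ranges of neighbours did not overlap. The next 5 were Vmn1r86 with a mean of 31.1, Vmn1r33 with 30.3, Vmn1r39 with 28.3, Vmn1r184 with 22.9 and Vmn1r51 with 22.5 TPM. Their order is not fixed by these libraries: Vmn1r51 was above Vmn1r184 in 2 of them.

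V1R transcripts were not spread over the gene clusters in proportion to gene number. Chromosome 6 carries 52 V1R genes, or 25.6% of the family, and held 40.0, 42.1 and 40.8% of V1R TPM. Chromosome 7 carries 96 genes, or 47.3%, and held 33.1, 30.997 and 33.3%. Chromosome 13 has 17.2% of the genes and held 17.03% of TPM. On chromosome 17 all 14 genes were detected and held 8.999% of TPM, against 46 of 96 detected on chromosome 7.

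The V2R receptors of basal neurons were detected for 104 of 122 genes, and 2 had no read. One member, Vmn2r125, is annotated as a pseudogene and was detected with a mean of 29.5 TPM. The summed level was 1543, 1810 and 1962 TPM, a mean of 1772 ± 212 TPM (SD, n = 3), from 367133, 360747 and 462301 reads. The median detected V2R was at 6.76 TPM. Of all 122 genes, detected or not, 1 had a mean of at least 100 TPM, 43 between 10 and 100 and 65 between 1 and 10. The 15 highest genes held 50% of the class and the 10 highest held 38.9 ± 0.738%.

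Vmn2r122, on an unplaced scaffold of the assembly, was the most abundant V2R at 90.5, 126 and 127 TPM. For Vmn2r122 no share of unique 31-base words was computed. The next gene, Vmn2r42, was at 67.4, 75.6 and 90.3 TPM, so the ranges were apart only by 90.5 in library 1 against 90.3 in library 3. From there to the eleventh gene the ranges of all neighbours overlapped. Vmn2r48 was at 58.2, 68.7 and 78.9 TPM, Vmn2r30 at 54.7, 66.6 and 77.3 TPM, Vmn2r36 at 55.3, 65.8 and 74.5 TPM and Vmn2r49 at 53.7, 53.3 and 74.3 TPM. These are chromosome 7 genes that share sequence with each other or with further copies: 50.9% of the 31-base words of Vmn2r30, 0.0788% of those of Vmn2r48 and 6.91% of those of Vmn2r49 are unique. Their separate levels depend on how shared reads were divided. Vmn2r89 and Vmn2r88 of chromosome 14, with 78.0 and 69.3% unique words, had means of 63.6 and 60.7 TPM. Vmn2r2 and Vmn2r7 of chromosome 3 closed the leading 10 with means of 60.2 and 53.6 TPM.

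A block of sequence upstream of 4 of these leading V2R genes is shown because it recurs almost letter for letter in receptors that are among the most abundant. The windows are 73 bases from the same RefSeq table, all on the minus strand, and capitals mark the letters TATTTAAG, which were picked out after the sequences and the levels had been seen. They lie at chr7:8200344-8200416, chr7:9953703-9953775, chr7:7337633-7337705 and chr7:9992279-9992351, outside the GENCODE genes.
Vmn2r42: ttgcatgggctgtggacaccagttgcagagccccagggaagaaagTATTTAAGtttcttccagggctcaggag
Vmn2r48: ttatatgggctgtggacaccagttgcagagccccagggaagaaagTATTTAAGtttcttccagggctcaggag
Vmn2r30: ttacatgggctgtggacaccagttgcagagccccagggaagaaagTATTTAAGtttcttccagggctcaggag
Vmn2r49: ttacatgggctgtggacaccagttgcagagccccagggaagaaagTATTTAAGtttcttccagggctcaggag

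The table held promoters for 114 of the 122 V2R genes. On either strand within 250 bases before the start, TATTTAAG was found in 0.992% of all 27025 promoters, in 22 of 47 V2R promoters of chromosome 7 and in 0 of 67 other V2R promoters. It was counted apart from TATAAA, with which its end letters can overlap. The 22 chromosome 7 receptors with the letters had a median of 18.1 TPM, from 1.63 to 77.8 TPM, and 21 were detected. The 25 without had a median of 5.27 TPM, from 0.330 to 65.2 TPM, and 22 were detected. The 22 include the 4 receptors shown, and the letters were picked out with their levels known, so the medians carry that choice. Among the 10 most abundant V2R genes, 4 of the 9 with a promoter held the letters, or 44.4%, against 46.8% on chromosome 7. The ranges overlap widely, several of the genes share much of their sequence, and no test was made.

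By chromosome, the 51 V2R genes of chromosome 7, 41.8% of the family, held 47.2, 45.4 and 48.9% of V2R TPM. The 31 genes of chromosome 17, or 25.4%, held 11.6, 11.4 and 11.7%. The pair on chromosome 14 held 7.01% of V2R TPM. Family C of the V2R genes, the 7 genes Vmn2r1 to Vmn2r7 that are broadly expressed in basal neurons and co-expressed with other V2R genes, held 14.4, 14.9 and 12.1% with 5.74% of the genes. Its summed level was 222, 270 and 237 TPM, and all 7 members were detected and highest in library 2, as were 41.0% of all detected genes. With the median detected gene removed, the family stood 0.14 above its 3-library mean in library 2 on the log2 scale, against -0.01 in library 1 and -0.07 in library 3. The X-linked Vmn2r121, among the genes over 50% unique with the largest spread, was likewise highest in library 2, at 19.0, 46.2 and 31.1 TPM.

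**Figure D3:**
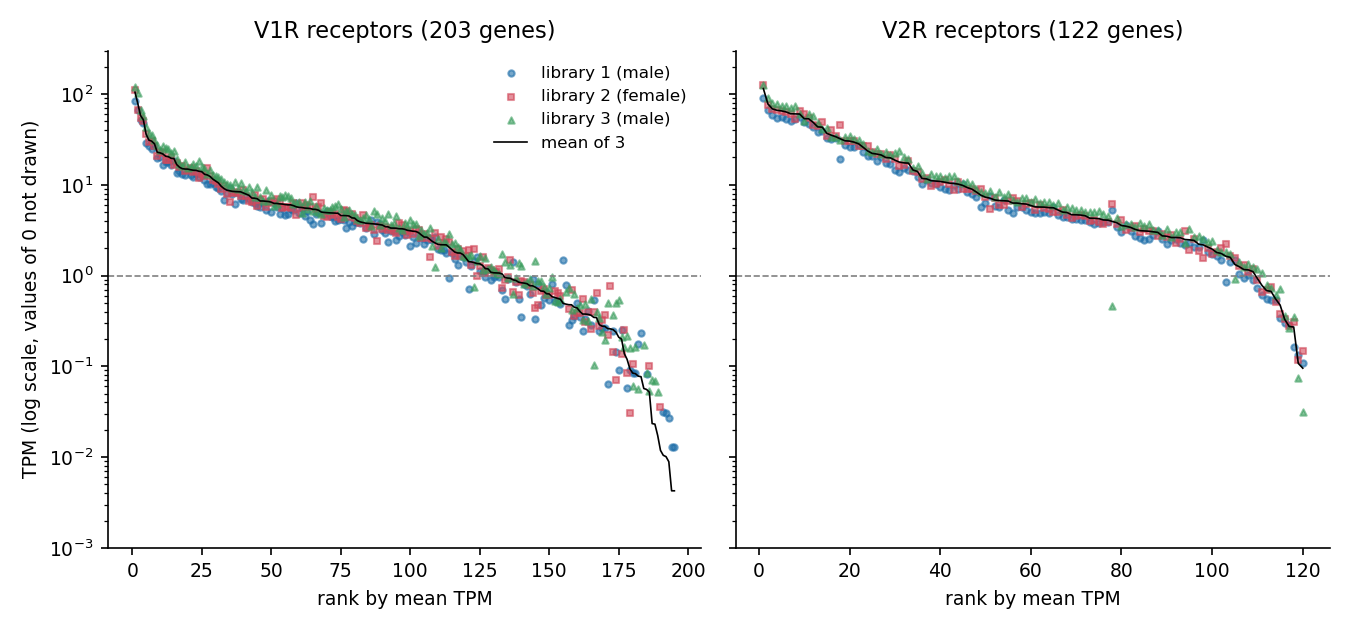
TPM of the V1R (left) and V2R (right) genes on a log scale against their rank by mean, with 1 point per library, the mean as a line and the detection threshold of 1 TPM dashed. The curves start at means of 105 and 115 TPM, and 124 V1R and 104 V2R genes reached the threshold in all 3 libraries. Vmn2r8 is the point far below the V2R line in library 3.

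Near the detection threshold, the V1R genes just inside were Vmn1r151, Vmn1r65 and Vmn1r91, with lowest library values of 1.02, 1.11 and 1.13 TPM. Those just outside were Vmn1r59, Vmn1r78 and Vmn1r142, at 0.992, 0.972 and 0.959 TPM. For V2R, Vmn2r12 at 1.01 and Vmn2r27 at 1.05 TPM were just inside and Vmn2r24 at 0.946 TPM just outside. Vmn2r8 missed the threshold through 1 library, at 5.23, 6.14 and 0.462 TPM. It was singled out after its values were seen.

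Summed V2R transcripts exceeded summed V1R transcripts by 1.42, 1.48 and 1.36 to 1, a mean of 1.42 ± 0.0604 (SD, n = 3), but this order turned to 0.796 ± 0.0438 when only receptors with over 50% unique 31-base words were counted (142 V1R and 91 V2R genes). The genes removed include Vmn1r37, Vmn2r42, Vmn2r48, Vmn2r36 and Vmn2r49, and Vmn2r122, for which no share of unique words was computed. Without division by length the ratio was 2.30. Per transcript of its G protein, V1R RNA was 2.57, 2.81 and 3.31 times Gnai2, and V2R RNA was 11.4, 12.3 and 12.2 times Gnao1. With only receptors over 50% unique, the ratios were 2.27, 2.45 and 2.91 for V1R and 5.59, 6.12 and 5.97 for V2R, a choice added after seeing the data.

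Receptor pseudogenes were counted apart. Of 115 V1R genes named as pseudogenes 7 were detected, and their sum was 42.0 ± 8.59 TPM (SD, n = 3). Of 116 V2R genes named as pseudogenes 15 were detected, with a sum of 199 ± 27.5 TPM. Vmn2r-ps159, annotated as protein coding despite its name, contributed 78.5, 90.7 and 99.97 TPM and would rank second among V2R genes.

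Formyl peptide receptors and H2-Mv genes are further families known from vomeronasal neurons. Of 7 formyl peptide receptors, which respond to bacterial and inflammatory peptides, 4 were detected, against 13742 of 21786 protein-coding genes. Fpr-rs3 was highest at 9.41, 10.9 and 10.47 TPM, then Fpr3 at 6.09, 8.62 and 7.19 TPM, and the immune-type Fpr1 and Fpr2 were at most 0.844 TPM. All 9 H2-Mv genes, nonclassical MHC class I genes expressed with certain V2R receptors, were detected with a sum of 353, 392 and 404 TPM. H2-M10.5 led at 105, 124 and 118 TPM, above the next, H2-M10.4, in every library, and H2-M11 was lowest at 5.78, 6.35 and 6.10 TPM. Their partner B2m was at 728, 821 and 848 TPM.

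Odorant receptors of the main olfactory system were mostly below the detection threshold. Of 1107 genes 7 were detected, and the sum was 73.0, 96.7 and 130 TPM, or 99.9 ± 28.7 TPM (SD, n = 3). The count rests on library 1 and on the threshold: it was 12 without that library, 79 from 0.1 TPM and 1 from 5 TPM in each library. Olfr124 alone, at 21.2, 28.3 and 45.1 TPM, was 29.1, 29.2 and 34.7% of the class. Olfr1509 was at 3.58, 7.28 and 7.74 TPM, and Olfr692 and Olfr1512 had means of 1.97 and 1.79 TPM. Olfr140, next with a mean of 1.76 TPM, was not among the detected genes, at 0.841, 1.09 and 3.37 TPM. None of 15 trace amine receptors was detected. Transduction genes of the main olfactory epithelium were nonetheless measurable. The G protein Gnal was at 10.96, 14.7 and 18.1 TPM, the cyclic nucleotide-gated channel Cnga2 at 7.15, 9.89 and 11.2 TPM, and the ciliary protein Stoml3 at 28.7, 43.0 and 51.8 TPM. Higher members of the list were Rtp1, which the mature neuron list also holds, at 133 to 154 TPM, Umodl1 at 132 to 147 TPM and Rtp2 at 70.9 to 82.3 TPM. All 12 genes of the list were detected, and all 12 were lowest in library 1, as were 74.8% of detected genes. Relative to the median detected gene, the list stood at -0.03, 0.00 and 0.04 in libraries 1, 2 and 3. Whether these transcripts came from neighbouring main olfactory tissue was not tested.

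The markers listed for immature and dividing neurons ranged widely. Gng8, a G protein gamma subunit that the basal list also holds, was at 427, 426 and 503 TPM, Stmn1, a regulator of microtubules, at 213, 254 and 306 TPM and the tubulin Tubb3 at 171, 187 and 210 TPM. In every library Stmn1 and Tubb3 lay above Snap25, Slc17a6, Stmn3, Syt1 and Rtp1 of the mature list and below Omp, Stom, Uchl1 and Gnb1. Most of the Gng8 value was assigned to Gng8-205, annotated as a retained intron. Gap43, a growth cone protein of immature neurons, was at 64.0, 67.4 and 90.8 TPM. The doublecortin gene Dcx was at 7.21, 7.504 and 8.70 TPM. Early lineage factors were low: Neurod1 was at 3.19, 4.85 and 5.26 TPM and Neurog1 at 0.911, 1.61 and 2.28 TPM. The proliferation marker Mki67 was at 1.61, 1.60 and 1.79 TPM. All 18 listed transcription factors of the lineage were detected, led by Meis2, Sox2 (a progenitor and supporting cell factor, 87.5, 99.7 and 116 TPM) and Ebf1 (76.6, 88.0 and 94.5 TPM). Bcl11b, which takes part in the choice between apical and basal fates, was at 4.97, 5.75 and 5.61 TPM, and Gli3 was lowest at 1.25, 1.43 and 1.34 TPM.

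Genes that guide and sort vomeronasal axons were detected for 14 of the 15 listed members in the files. Kirrel2, an adhesion molecule of axon sorting, was highest at 135, 157 and 153 TPM, with Kirrel3 at 41.3, 41.6 and 44.6 TPM. Plxna1, a semaphorin co-receptor, was at 49.999, 48.5 and 51.8 TPM, and Robo2 exceeded Robo1, which was at 15.3, 16.03 and 17.4 TPM, in each library. Epha6 was not detected, at no more than 0.0146 TPM.

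Cnpy1 is the gene altered in the other mice of the study and belongs to the canopy genes, whose proteins reside in the endoplasmic reticulum. In the wild-type organ it was at 122, 147 and 160 TPM, a mean of 143 ± 19.7 TPM (SD, n = 3), near Gnao1 in rank (691st against 665th). Of this, 94.7 ± 0.334% came from the transcript Cnpy1-205. Among its relatives, Cnpy2 was at 104, 110 and 116, Cnpy3 at 29.6, 30.5 and 28.0 and Cnpy4 at 12.1, 14.3 and 13.2 TPM. Cnpy1 was above Cnpy2 in every library. All 13 genes listed for protein folding and MHC assembly were detected. Hspa5, the chaperone BiP, led the chaperones at 702, 780 and 652 TPM.

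Supporting cell and xenobiotic enzyme genes were all detected (12 of 12). Cbr2 was at 2208, 2675 and 2485 TPM and the glucuronosyltransferase Ugt2a2 at 874, 1026 and 1207 TPM. The cytochrome P450 genes Cyp2a5 and Cyp2g1 were at 362, 434 and 553 TPM and at 50.9, 74.7 and 93.9 TPM. Ugt2a2 shares 68.8% of its 31-base words with Ugt2a1, and the sum of both was 960, 1172 and 1370 TPM. All 12 were lowest in library 1, against 74.8% of detected genes, and the list stood at -0.18, -0.05 and 0.26 relative to the median detected gene. Ciliary genes, of which 9 of 10 were detected, had sums of 220, 270 and 282 TPM and stood at -0.10, -0.09 and 0.17. The ciliogenesis factor Foxj1 was at 32.5, 39.8 and 43.1 TPM. Of the neuronal lists, the apical, basal and mature neuron markers lay between -0.03 and 0.05, the transduction list at 0.10, -0.08 and 0.02, the immature list at -0.01, -0.05 and 0.09 and the transcription factors at -0.02, 0.00 and 0.08.

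Blood, vessel and connective tissue genes differed in level between the libraries. The 5 erythroid genes, 4 globins, of which Hba-a1 and Hba-a2 share most of their 31-base words, and the haem synthesis enzyme Alas2, summed to 915, 1299 and 1707 TPM and each was lowest in library 1 and highest in library 3, as were 74.8% and 53.4% of detected genes, respectively. The list stood at -0.36, -0.06 and 0.42 relative to the median detected gene. Basal cell keratins and Trp63 stood at -0.07, 0.18 and -0.07 on the same measure, with Krt5 at 53.9, 71.0 and 58.4 TPM. Detected cartilage and bone genes were highest in library 2 for 6 of 6, at -0.04, 0.22 and -0.18 relative to the median detected gene, among them Col1a1 (317, 396 and 242 TPM). Col2a1, a defining cartilage collagen, was low at 0.318, 1.59 and 0.434 TPM. Of the 11 vascular genes 9 were highest in library 2, with the list at 0.06, 0.11 and -0.18. Of the 10 detected immune genes likewise 9 were, with the list at -0.03, 0.08 and -0.07, led by Cd74 of antigen presentation at 752, 906 and 863 TPM. As deposited, 41.0% of all detected genes were highest in library 2, and the part of dissection in these differences was not tested.

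**Figure D4:**
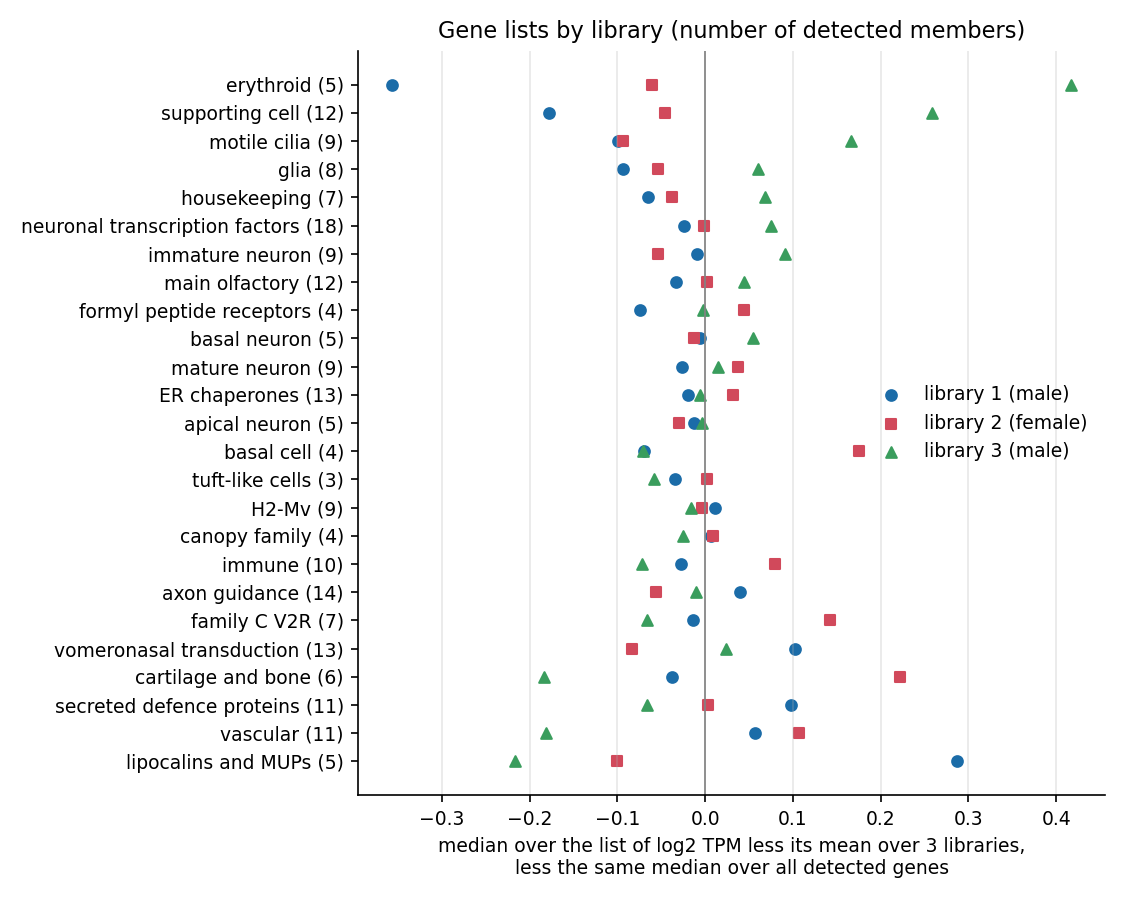
Median over the detected members of each list of the log2 TPM less its 3-library mean, with the median over all detected genes subtracted, 1 point per library. Erythroid genes spread from -0.36 to 0.42, the lipocalin list, highest in library 1, from -0.22 to 0.29 and supporting cell genes from -0.18 to 0.26, and the neuron marker, transduction and neuronal transcription factor lists lie between -0.08 and 0.10. Lists with under 3 detected members are not drawn.

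Skeletal muscle genes set library 1 apart. Acta1, the muscle actin, was at 5.18, 0.210 and 0.266 TPM, the creatine kinase Ckm at 6.38, 1.05 and 1.37 TPM and the troponin Tnnt3 at 3.98, 0.107 and 0.171 TPM. The fast myosin Myh4 was at 0.945 TPM in library 1 and 0 in the others. The sum of the 5 genes was 28.2, 9.97 and 11.8 TPM, of which the myosin light chain Mylpf made 11.7, 8.60 and 10.002 TPM.

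Of the other listed lipocalin genes, Lcn11 was at 263, 237 and 261 TPM, whereas the odorant-binding protein genes Obp1a and Obp1b on the X chromosome were low and uneven. Obp1a was at 0.133, 8.999 and 5.42 TPM and Obp1b at 0.0456, 11.002 and 5.45 TPM, lowest in library 1, where Obp2a was highest. Obp1b shares 80.7% of its 31-base words with Gm14743, and 19.3% of them are unique. Bpifb9a, a secreted protein gene related to Bpifa1, was at 0.862, 15.4 and 0.0296 TPM, but only 27.8% of its 31-base words are unique. The major urinary protein genes Mup3 and Mup20 had no reads, and Mup4 was at 0.102, 2.12 and 2.83 TPM.

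The spread over the libraries holds differences between animals as well as counting error. The median coefficient of variation over detected genes was 9.36%, against a median of 2.34% from the square root of the reads. It fell to 7.22% with TMM factors and to 6.72% without the 4 lipocalins, and was 6.02% when library 1 was left out. Detected V1R genes varied by a median of 15.4% and V2R genes by 13.6%, with counting errors of 3.44 and 2.14%. Genes of 100 to under 1000 reads, a depth like that of the median V1R gene, varied by 11.5%, and genes of 1000 to under 10000 reads by 8.59%. After scaling to the median detected gene the medians were 11.6% for V1R, 9.65% for V2R and 6.62% for all detected genes.

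Sequence shared between genes marked the most variable ones. Among the 588 detected genes with at most 50% unique 31-base words the median coefficient of variation was 13.4%, against 9.23% for the 13380 others with a value. Of the 50 genes with the largest SD of log2(TPM + 1) among the 8468 with a mean of at least 10 TPM, 35 had at most 50% unique words, against 3.74% of the 8468. The 10 most variable were Gm28437, Gm10222, Rps12-ps3, Gm10359, Gm10443, Gm48583, Gm13092, Gm10182, Rpl10a-ps1 and Morf4l1-ps1, each sharing 83.5 to 100% of its words with a single parent such as mt-Co3, Gapdh or Rps12. Gm28437 was at 0.000007, 0 and 918 TPM, while its parent mt-Co3 was at 6421, 6476 and 7826 TPM. These 10 varied by 90.9 to 173%, their parents, mostly far more abundant, by 5.02 to 14.4%, and the sums of each pair by 9.74 to 34.1%. The sum varied more than the parent alone in every pair except that of Gm10359 and Gapdh.

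**Figure D5:**
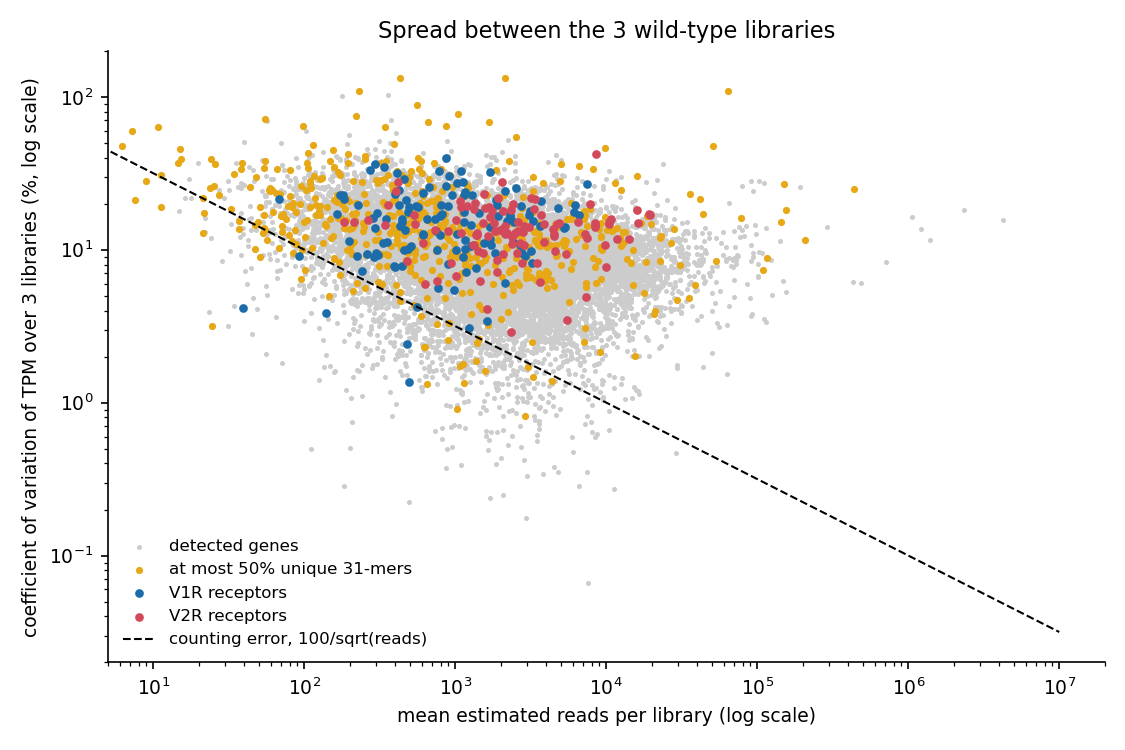
Coefficient of variation of TPM over the 3 libraries against the mean number of estimated reads, both on log scales, for detected genes. Grey points are all 13976 detected genes, orange those with at most 50% unique 31-base words, blue V1R and red V2R receptors, and the dashed line is the counting error. Most points lie above the line, and the receptor points spread through the cloud, with medians of 15.4% for V1R and 13.6% for V2R.

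Each library also had genes that stood above the other pair. In library 1 these were Sbpl, a spermine-binding protein-like gene of chromosome 17, at 27.9, 7.26 and 0 TPM, and the mast cell protease genes Tpsb2 (20.8, 13.5 and 11.9 TPM), Cma1 (22.9, 14.99 and 12.8 TPM) and Mcpt4 (26.2, 16.3 and 17.7 TPM), followed by the olfactomedin Olfm5 (24.2, 17.4 and 10.33 TPM). In library 2 the first 4, Gm10359, Gm10163, Rpl15-ps3 and Ptges3-ps, had no unique 31-base word, and the fifth was the collagen Col8a1 at 17.02, 28.6 and 17.9 TPM. In library 3 they were Gm28437, Gm10443, Gm13092, Morf4l1-ps1 and Gm6472, none above 16.5% unique. Among genes over 50% unique, a limit added after seeing the data, those furthest above in library 3 included the myelin gene Mbp (22.9, 23.4 and 42.1 TPM), and library 2 was led by Col8a1 and the secreted peroxidase Gpx3 (209, 340 and 224 TPM).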

How the data were processed

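Polyadenylated RNA of the vomeronasal organ was measured in the 3 wild-type libraries. The authors deposited TPM and estimated counts per transcript for each library. Per the submitters' processing notes, Trim Galore 0.6.6, Salmon 1.9.0 and DESeq2 were used, with the builds mm10 and GRCm38. The annotation and index settings are not given in the sources used here. Deposited estimated counts and TPM were summed to genes by transcript identifier through GENCODE M21 (GRCm38): 116021 of 117081 transcripts matched, and the 1060 others held 0.257 to 0.310% of the reads. Salmon divides reads shared between genes by a model, so a gene's level also depends on its copies. The share of a gene's 31-base words found in no other gene was therefore computed from transcript sequences. TMM factors came from edgeR 4.0.16 on rounded counts. All other steps used Python 3.11.15. With 1 group of 3 libraries nothing was tested, and errors are SDs over the libraries. Depth was 60969508 to 71670766 reads. Counting errors assume independent reads.

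Named genes were the 25 highest by mean TPM, members of 28 lists, the 10 highest V1R and V2R and 5 highest odorant receptor genes, the 10 with the largest SD of log2(TPM + 1) at a mean of at least 10 TPM, and the 5 per library furthest above the other pair. The members and lists were chosen with earlier results of these data known. Kirrel1 and Xist were listed and not matched. V1R and V2R classes were counted by symbol, including 2 genes annotated as pseudogenes. Alternatives were other detection limits, RPM (reads scaled to depth alone), TMM, leaving out mitochondrial genes, stricter receptor sets and leaving out each library. The statistics were checked on simulated data with known changes. Knockout libraries were not analysed here. Some named genes are not reported here.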

Additional observations from a re-analysis of the deposited data

Results flagged for a closer look

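A signal lay outside the gene table: the transcript ENSMUST00000239073.1, 1958 bases long, matched no gene of the annotation used. It enters no gene level above, though it counts in the library depths, the TPM total and the share of unmatched reads. It had a mean of 191 TPM, at 179, 211 and 183 TPM in libraries 1, 2 and 3, from 17232, 17120 and 17467 reads, above the level of Gnao1. The limit that a count of 0 allows is 3 reads.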

How the results depend on the processing

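No paired analysis was possible because the values come from 1 group of animals and from no test. For the 13 summary values, 92 recalculations were made, of which 68 stayed within 1.5 times (counts) or within 1 SD over libraries (other values), and 24 did not. Some of the 68 could not move. TMM factors cancel in ratios and class shares, and the protein-coding rule took from V1R only V1rg10, which had no read. Detection from 5 TPM left 56 V1R, 60 V2R and 1 odorant receptor gene. Odorant receptors rose from 7 to 79 with 0.1 TPM and to 113 with 10 estimated reads. Without division by length (RPM), the 10 most abundant genes held 18.7%, Obp2a stood at 62931, V1R and V2R at 2578 and 5921, their ratio was 2.30, that of Gnai2 to Gnao1 2.08, the 10 highest V1R and V2R held 30.2 and 34.9% of their class, and the median coefficient of variation was 7.04%. With receptors over 50% unique only, the V2R sum was 871 TPM, the ratio of V2R to V1R 0.796, and the 10 highest V1R and V2R held 34.7 and 49.5%. The median coefficient of variation was 7.22% with TMM factors. Rescaled without the 4 lipocalins, an alternative added after seeing the data, V1R and V2R summed to 1830 and 2594 TPM and the median coefficient of variation was 6.72%. Leaving out each library in turn gave 14032 to 14151 detected genes, a top-10 share of 35.5 to 39.8%, Obp2a at 137649 to 160601 TPM, 125 to 131 V1R and 104 to 107 V2R genes, sums of 1155 to 1333 and 1677 to 1886 TPM, ratios of 1.39 to 1.45 (V2R to V1R) and 2.84 to 3.04 (Gnai2 to Gnao1), top-10 shares of 36.7 to 37.4% (V1R) and 38.6 to 39.4% (V2R), 7 to 12 odorant receptors and a median coefficient of variation of 6.02 to 9.61%. Library 1 decided the last pair: without it 12 odorant receptors were detected and the coefficient was 6.02%. Fewer libraries also loosen the detection rule by construction. As to depth, the V1R and V2R genes nearest the threshold rest on 37 to 1340 reads in library 1.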
